A study of Mus musculus with 59 samples.

Results

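Malat1, Neat1, Miat, Meg3, Rian and Snhg11 are long noncoding RNAs, transcripts that act as RNA and are not translated into a protein. The 6 genes were taken by symbol from the 57180 gene rows of the deposited count table, in which each of the symbols stands on 1 row. They were chosen with the genotype differences of Malat1 already known: its level in cortex was lowest in the double heterozygotes, and in hippocampus it was not. The values behind that choice, which are every genotype difference of Malat1 and the cortex difference between double heterozygotes and wild type of all 6 RNAs, are given below as descriptions with no test.

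Malat1 is retained in the nucleus, where it collects in nuclear speckles, the bodies that store splicing factors. Its neighbour Neat1 is the scaffold of paraspeckles, bodies built by RNA-binding proteins such as Nono and Sfpq. Miat, also called Gomafu, is a nuclear RNA of neurons that binds splicing factors. Meg3 and Rian are expressed from the maternal chromosome of the imprinted Dlk1-Dio3 domain, and Rian hosts small nucleolar RNAs and microRNAs. Snhg11 is a small nucleolar RNA host gene with high expression in brain.

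Malat1 and the long form of Neat1 share an unusual 3′ end. Both are cut by RNase P just before a transfer-RNA-like structure, so they end without an added poly(A) tail. U-rich stretches and an A-rich stretch fold into a triple helix that guards the end. The stretch of 130 bases that ends at the A-rich run is shown for each because the libraries were made from poly(A)-selected RNA. Sequences are from the GENCODE vM21 transcripts Malat1-201 and Neat1-201, read 5′ to 3′, and capitals mark runs of at least 10 bases that both hold.
Malat1: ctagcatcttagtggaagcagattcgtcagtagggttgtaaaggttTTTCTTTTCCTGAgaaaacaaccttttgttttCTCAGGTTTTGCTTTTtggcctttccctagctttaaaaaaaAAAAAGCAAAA
Neat1: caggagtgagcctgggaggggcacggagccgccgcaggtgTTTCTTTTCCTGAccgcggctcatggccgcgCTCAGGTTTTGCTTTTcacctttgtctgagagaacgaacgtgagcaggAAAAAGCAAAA
The Malat1 window covers positions 6562 to 6691 of a transcript of 6983 bases, so 292 annotated bases follow it. The Neat1 window covers positions 20642 to 20771 and is the end of the annotated transcript. The longest run of A in Malat1-201 is 12 bases and begins at position 6674, inside the window shown, whereas in Neat1-201 it is 7 bases and begins at position 9539. How far poly(A) selection captured either RNA was not tested.

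The study sequenced poly(A) RNA from cortex and hippocampus of male mice carrying heterozygous alleles of Slc25a1, the mitochondrial citrate carrier, and Mrpl40, a protein of the mitochondrial ribosome, both encoded in the mouse counterpart of the human 22q11.2 deletion region. The labels give wild type (Mrpl40 +/+,Slc25a1 +/+), Slc25a1 heterozygotes (Mrpl40 +/+,Slc25a1 -/+), Mrpl40 heterozygotes (Mrpl40 -/+,Slc25a1 +/+) and double heterozygotes (Mrpl40 -/+,Slc25a1 -/+). In that order there were 9, 7, 7 and 7 cortex libraries and 8, 7, 7 and 7 hippocampus libraries, and 29 of the 30 animals gave both tissues. The labels give no age, strain or allele construction, and each library is named by its group and replicate number.

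Library totals ranged from 21443017 to 32120906 counts. Slc25a1 checked the labels: its median in cortex was 24.0 CPM (counts scaled to library size, with trimmed mean of M values, TMM) in wild type, 12.6 in Slc25a1 heterozygotes, 22.4 in Mrpl40 heterozygotes and 11.6 in double heterozygotes. In 6 animals (2 labelled wild type, 2 labelled Slc25a1 heterozygous and 2 labelled double heterozygous) Slc25a1 went against the label in both tissues, so every group below is a labelled group and key values are also given without these animals. Mrpl40 did not separate the groups, with cortex medians of 17.2, 17.9, 17.5 and 17.6 CPM in the order above, so its message does not check the Mrpl40 labels. The 5 neocortex markers summed to 709 to 1032 CPM in cortex and 141 to 221 CPM in hippocampus, and the 7 hippocampus markers to 140 to 220 CPM and 873 to 1654 CPM. Hippocampus wild type library 8 held the highest neocortex sum of its tissue (221 CPM), the lowest hippocampus sum (873 CPM) and the highest oligodendrocyte sum (4800.1 CPM), and results that rest on it are given with and without it.

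The 6 RNAs made up 1.43% to 1.91% of all counts in cortex libraries (median 1.62%) and 0.858% to 1.42% in hippocampus (median 0.935%). By mean CPM over 21351 genes, Meg3 ranked 1 in cortex and 3 in hippocampus, Snhg11 4 and 24, and Malat1 13 and 15. Rian ranked 82 and 190, and Miat 116 and 97. Neat1 stood apart from the label of an abundant RNA, at rank 2427 in cortex and 1618 in hippocampus. The libraries hold whole tissue, and all 11 neuron markers were measured in them, but which cells held these RNAs was not measured.

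Levels of different genes were compared per kilobase of exon, with the union of all annotated exons of a gene in GENCODE vM21 as its length. That union is 6983 bases for Malat1, 18089 for Meg3 and 8521 for Snhg11. The longest annotated transcripts have 6983, 14548 and 5864 bases, and most are far shorter. Which transcripts were present was not measured, so the order between genes depends on this choice of length. In cortex Snhg11 stood at 478 ± 32.2 CPM per kilobase (SD, n = 30) and Meg3 at 454 ± 31.8, a gap smaller than either SD. Malat1 followed at 306 ± 27.9, then Miat at 83.8 ± 6.5, Rian at 52.1 ± 2.81 and Neat1 at 4.76 ± 0.689. In hippocampus (n = 29) Malat1 came first at 307 ± 29.5 CPM per kilobase, above Meg3 at 223 ± 38.2 and Snhg11 at 207 ± 34.5, while Neat1 was again lowest at 6.59 ± 1.05. By this measure the order of the 3 most abundant RNAs was reversed in hippocampus. Malat1 stood at nearly the same level in both tissues, and the gap between Meg3 and Snhg11 was within their SDs in each.

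In cortex the level of Malat1 was lower in double heterozygotes than in the other genotypes. Wild type cortex ranged from 1961 to 2375 CPM with a median of 2117. Slc25a1 heterozygotes ranged from 1987 to 2599.7 CPM (median 2239), and Mrpl40 heterozygotes stayed between 2243 and 2334 CPM (median 2273). Double heterozygotes ranged from 1771 to 2070.0 CPM with a median of 1887, so 6 of 7 lay below all 9 wild type libraries and the highest lay inside the wild type range.

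The mean Malat1 level in cortex was 2133 ± 136 CPM in wild type (SD, n = 9), 2241 ± 194 in Slc25a1 heterozygotes (n = 7), 2281 ± 31.6 in Mrpl40 heterozygotes (n = 7) and 1887 ± 101 in double heterozygotes (n = 7). The fitted log2 difference from wild type was -0.18 ± 0.043 (SE) in double heterozygotes, a fold of 0.882. Both groups with 1 heterozygous gene sat above wild type, at 0.07 ± 0.043 for Slc25a1 and 0.10 ± 0.043 for Mrpl40. Against Mrpl40 heterozygotes the difference of the double heterozygotes was -0.28 ± 0.046, with no overlap between the groups, a pattern that 0.113% of 20394 tested genes showed in this direction. Against Slc25a1 heterozygotes it was -0.25 ± 0.046, with 6 of 7 double heterozygotes below all 7. The interaction, which is the double heterozygous difference minus the sum of those of both genotypes with 1 heterozygous gene, was -0.35 ± 0.063 on the log2 scale.

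Leaving out the 6 animals against their label brought the cortex difference of the double heterozygotes from wild type to -0.13 ± 0.048. The differences of the Slc25a1 and Mrpl40 heterozygotes from wild type became 0.13 ± 0.047 and 0.14 ± 0.043. Wild type then spanned 1961 to 2185 CPM (n = 7) and double heterozygotes 1773 to 2070.0 CPM (n = 5), and Mrpl40 heterozygotes still lay above all double heterozygotes. In cortex the animals left out held 2375 and 2287 CPM where labelled wild type, and 1771 and 1913 CPM where labelled double heterozygous. Those labelled Slc25a1 heterozygous held 2084 and 2239 CPM. Both wild type values left out lay above the range of the wild type libraries kept. Of the double heterozygous values left out, 1771 CPM lay just below the range of those kept and 1913 CPM inside it. Both Slc25a1 heterozygous values left out lay inside the range of those kept, 1987 to 2599.7 CPM (n = 5). The relation of Malat1 to the measured Slc25a1 level was not tested. Between double heterozygotes and wild type cortex 14 genes, 0.0686% of those tested, were called at a false discovery rate of 0.05. Nothing is read from that count for Malat1, which was chosen on this contrast.

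**Figure D1:**
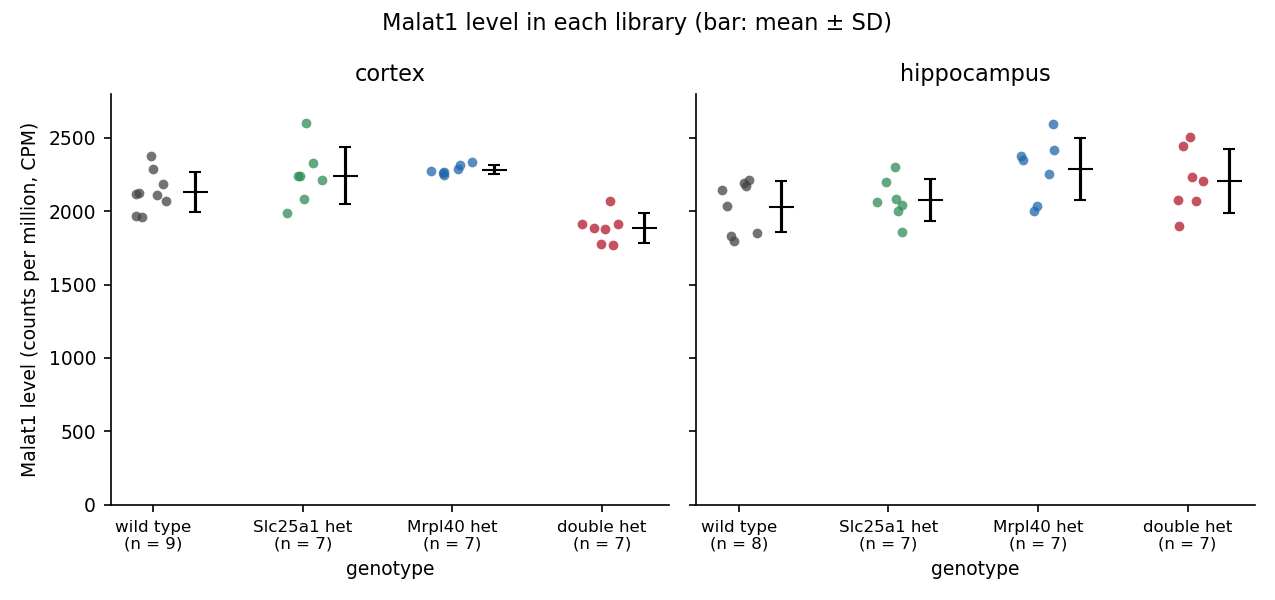
Malat1 level in CPM (y axis, from 0) in each cortex library (left) and hippocampus library (right) by labelled genotype, with bars for mean ± SD. In cortex the 7 double heterozygous libraries lie between 1771 and 2070.0 CPM, below all 7 Mrpl40 heterozygous libraries, while in hippocampus all 4 groups overlap.

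In hippocampus the genotype groups of Malat1 overlapped. Wild type ranged from 1798 to 2208 CPM (median 2089.9), Slc25a1 heterozygotes from 1854 to 2300.3 (median 2059.9), Mrpl40 heterozygotes from 2001 to 2589 (median 2344) and double heterozygotes from 1896 to 2504 (median 2203). All 3 heterozygous groups had means above wild type, at log2 differences of 0.04 ± 0.066, 0.17 ± 0.066 and 0.12 ± 0.066 in the same order. Above all 8 wild type libraries lay 2 of 7 Slc25a1 heterozygotes, 5 of 7 Mrpl40 heterozygotes and 3 of 7 double heterozygotes. The interaction there was -0.09 ± 0.095, smaller than its SE. The difference of the double heterozygous effect between tissues, hippocampus minus cortex in the same animals, was 0.31 ± 0.075 and became 0.20 ± 0.085 without the 6 animals against their label. Ranked over the 8 tissue and genotype groups, Malat1 means ran from 2288 CPM in Mrpl40 heterozygous hippocampus to 1887 CPM in double heterozygous cortex, and no gap between neighbours in that order exceeded the larger of their SDs.

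Cell type markers were also compared in cortex. Between double heterozygotes and wild type, 9 of 9 astrocyte markers, 9 of 10 microglia markers and 9 of 10 endothelial and pericyte markers had log2 differences below 0, with medians of -0.10, -0.13 and -0.05 against -0.0034 over all tested genes. All 9 oligodendrocyte markers were above 0 (median 0.17), and 9 of 11 neuron markers (median 0.03). The markers of a list were read in the same libraries, so these counts of direction are not independent. C1qa, a complement gene of microglia, passed the test (-0.31 ± 0.060, edgeR adjusted p = 0.0262), and no other marker of these 5 lists did. The summed levels overlapped: astrocyte markers ran from 4441 to 5059 CPM in wild type and 4289 to 4819 in double heterozygotes, microglia markers from 355 to 440 and 331 to 380.2, endothelial and pericyte markers from 273 to 337 and 264 to 329, oligodendrocyte markers from 1808 to 2915 and 1894 to 3502, and neuron markers from 9792 to 11075 and 10614 to 11451. No marker of these lists was at 0 in every library of a group. The slope of log2 level on exon length over genes, in log2 units per doubling of length and relative to the mean library, ran from -0.0233 to 0.0033 in wild type cortex and from -0.0082 to 0.0299 in double heterozygous cortex. The part of the markers and of the length trend in the difference of Malat1 was not tested, and in whole tissue fewer cells of a type and less RNA per cell cannot be told apart.

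Neat1 did not follow its neighbour. Its cortex level ranged from 80.6 to 104 CPM in wild type (median 94.7), from 81.3 to 126 in Slc25a1 heterozygotes (median 92.8), from 86.5 to 131 in Mrpl40 heterozygotes (median 101) and from 77.4 to 129 in double heterozygotes (median 108). In double heterozygous cortex its log2 difference from wild type was 0.18 ± 0.10, on the other side of 0 from Malat1, with 4 of 7 libraries above all wild type and 1 below all. Against Mrpl40 heterozygotes Neat1 differed by 0.02 ± 0.11 in cortex (edgeR adjusted p = 0.978). In hippocampus Neat1 ran from 102 to 176 CPM in wild type and from 112 to 190.4 in double heterozygotes, a difference of 0.15 ± 0.11 (adjusted p = 0.989).

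Meg3 ranked first of all genes in cortex. Apart from Malat1 it had the difference farthest below 0 between double heterozygotes and wild type there, and the double heterozygotes also had the lowest cortex mean for Miat and Snhg11. Wild type ranged from 7837 to 8886 CPM (median 8402), Slc25a1 heterozygotes from 7662 to 9915 (median 8405), Mrpl40 heterozygotes from 7593 to 8544 (median 8359) and double heterozygotes from 6692 to 8306 (median 7839). The log2 difference between double heterozygotes and wild type was -0.12 ± 0.045, with 3 of 7 libraries below all wild type. Meg3 did not pass the test against Slc25a1 heterozygotes (-0.15 ± 0.048, edgeR adjusted p = 0.241), against Mrpl40 heterozygotes (-0.11 ± 0.048, adjusted p = 0.672) or as an interaction (-0.14 ± 0.065, adjusted p = 0.927). In hippocampus Meg3 differed from wild type by -0.16 ± 0.11 in double heterozygotes (adjusted p = 0.989), and without hippocampus wild type library 8 the difference of the group means came to -0.04. Mrpl40 heterozygotes stood farther from wild type there, at -0.24 ± 0.11 (edgeR adjusted p = 0.593), and without that library at -0.11.

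Rian, which lies downstream of Meg3 in the same imprinted domain, had nearly equal cortex medians in the 4 genotypes: 979 CPM in wild type, 944 in Slc25a1 heterozygotes, 932 in Mrpl40 heterozygotes and 951 in double heterozygotes. Its largest cortex difference from wild type, in Mrpl40 heterozygotes, was -0.03 ± 0.040 (edgeR adjusted p = 0.906), and in double heterozygotes it was -0.01 ± 0.040. Snhg11 was as even, with cortex medians of 4044, 4034, 4112 and 3919 CPM and a difference of -0.04 ± 0.049 in double heterozygotes. Miat showed medians of 781, 809, 781 and 772 CPM and a difference of -0.04 ± 0.055 there. In all 3 heterozygous groups the cortex ranges of these 3 RNAs overlapped wild type.

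In hippocampus the Rian medians were 562, 540.1, 544 and 536 CPM in the same order of genotypes, and those of Snhg11 were 1750.1, 1695, 1669 and 1897 CPM. Miat had hippocampus medians of 862, 902, 840.05 and 812 CPM, and its difference between double heterozygotes and Slc25a1 heterozygotes, -0.11 ± 0.056, did not pass the test (edgeR adjusted p = 0.553). The 5 RNAs other than Malat1 were tested in 11 genotype contrasts over both tissues, 55 tests in all, and edgeR called none. In 4 of the 55 the unadjusted p was under 0.05, each of them for Meg3, and DESeq2 also called 0. Over all genes the share with such a p was between 3.17% and 9.92% in these contrasts. Few genes of any kind were called. In cortex the share was 0.0588% between double and Slc25a1 heterozygotes, 0.0294% between Mrpl40 heterozygotes and wild type, 0.0049% between double and Mrpl40 heterozygotes, and 0% between Slc25a1 heterozygotes and wild type and for the interaction. In hippocampus it was 0.00992% between double heterozygotes and wild type, 0.00496% between Mrpl40 heterozygotes and wild type, and 0% in the other 4 contrasts. In the 6 contrasts with 0% edgeR gave between 646 and 1822 genes an unadjusted p under 0.05, and DESeq2 called between 0 and 14.

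**Figure D2:**
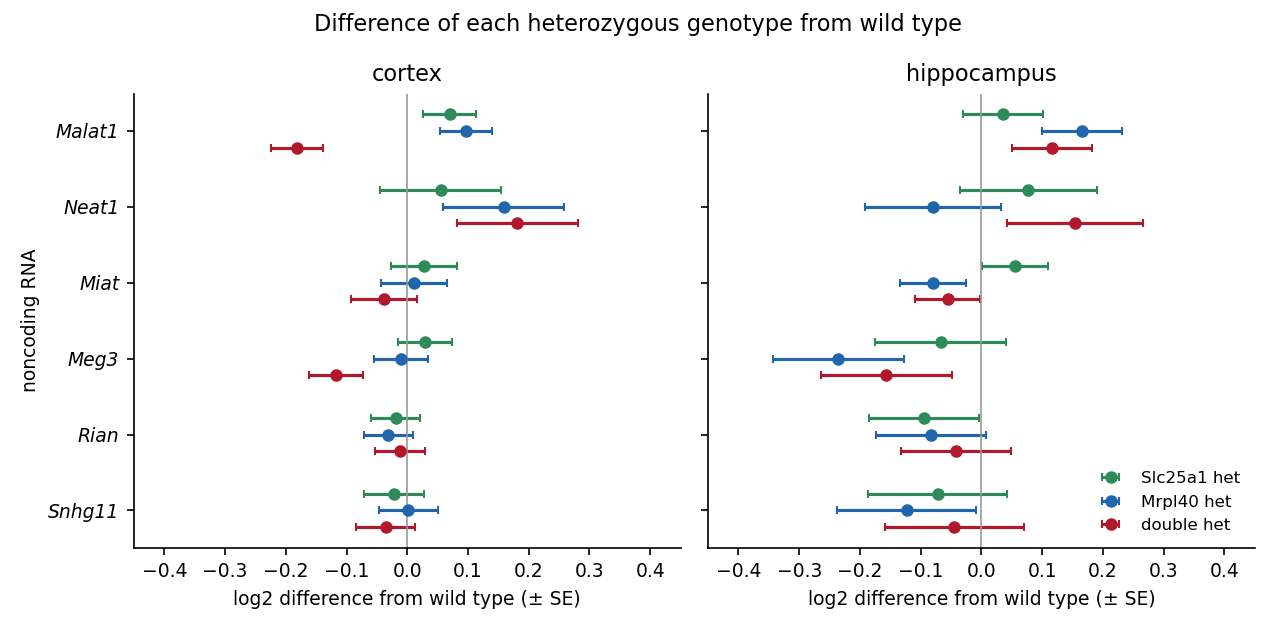
Fitted log2 difference from wild type (x axis, bars show ± SE) of each of the 6 RNAs (y axis) in the 3 heterozygous genotypes, cortex on the left and hippocampus on the right. Malat1 in double heterozygous cortex (-0.18) lies on the other side of 0 from the remaining 5 Malat1 values, which run from 0.04 to 0.17.

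Genes tied to these RNAs by function showed no edgeR call between double heterozygotes and wild type in cortex. Of 22 paraspeckle proteins 17 had differences above 0 and 5 below, with a median of 0.04. The list was not tested as a whole. Of its genes 7 had an unadjusted p under 0.05, a larger share than the 10.9% of all tested genes. Of 26 nuclear speckle and splicing proteins 10 were above and 16 below (median -0.01) and 0 had such a p, and of 17 tested genes that bind, modify or process Malat1 10 were above and 7 below (median 0.02), 3 with such a p. Among the other genes of the Dlk1-Dio3 domain 5 of 6 were below 0 with a median of -0.12, against -0.0034 over all tested genes. Meg3 stood at -0.12 and Rian at -0.01. The gene above 0 was Dlk1 (0.75 ± 0.36). With no strand setting stated, the reads of Rtl1 (-0.19 ± 0.067), which overlaps Meg3 and Rian transcripts, cannot be told from theirs. Of 37 other long noncoding RNAs 14 were above 0 and 23 below, with a median of -0.04.

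Between tissues 4 of the RNAs differed in every genotype, Meg3, Rian and Snhg11 being lower and Neat1 higher in hippocampus. In the 29 animals with both tissues, Meg3, Rian and Snhg11 were lower in hippocampus than in cortex of the same animal in 29 of 29, a direction that 14.6% of 21354 genes kept in all animals. Neat1 was higher in hippocampus in 28 of 29 animals, Miat in 23 of 29 and Malat1 in 15 of 29. The fit with the animal as a block called 18 of 23 tests of these RNAs over the 4 genotypes, against 60.6% of all genes in wild type, 60.4% in Slc25a1 heterozygotes, 60.3% in Mrpl40 heterozygotes and 57.5% in double heterozygotes. With most genes differing between tissues, the share of calls says little about these 6.

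Snhg11 fell the most. Over all libraries its level was between 3452 and 4843 CPM in cortex and between 1419 and 2911 CPM in hippocampus. The highest hippocampus value came from wild type library 8, the next highest was 2098 CPM, and no hippocampus library reached the lowest cortex library. The log2 difference in wild type was -1.21 ± 0.078 (edgeR adjusted p = 6.7e-15), a fold of 0.432, and in the other genotypes it lay between -1.29 and -1.19. Without wild type animal 8 the wild type difference was -1.31.

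Meg3 fell to about the same degree, from 6692 to 9915 CPM in cortex to 3216 to 6848 CPM in hippocampus. Its difference in wild type was -0.98 ± 0.076 (edgeR adjusted p = 2.2e-13), and it was -1.05 in Slc25a1 heterozygotes, -1.16 in Mrpl40 heterozygotes and -0.99 in double heterozygotes. Rian fell by 0.73 ± 0.067 on the log2 scale in wild type (adjusted p = 3.7e-11), and by 0.74 to 0.78 in the heterozygous genotypes. In all 4 genotypes these 3 RNAs passed the test.

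The tissue difference was not equal in all animals. In wild type animal 8 Meg3 differed by -0.24 and Rian by -0.08 (log2), where the other 28 animals lay between -1.42 and -0.69 for Meg3 and between -1.06 and -0.49 for Rian. Snhg11 differed by -0.47 in that animal and by -1.57 to -0.83 in the others. This is the animal whose hippocampus library holds the highest neocortex and lowest hippocampus marker sums, and the part of those markers was not tested. Without that library the hippocampus wild type means were 3975 ± 306 CPM for Meg3 (SD, n = 7), 556 ± 31.2 for Rian and 1673 ± 146 for Snhg11.

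**Figure D3:**
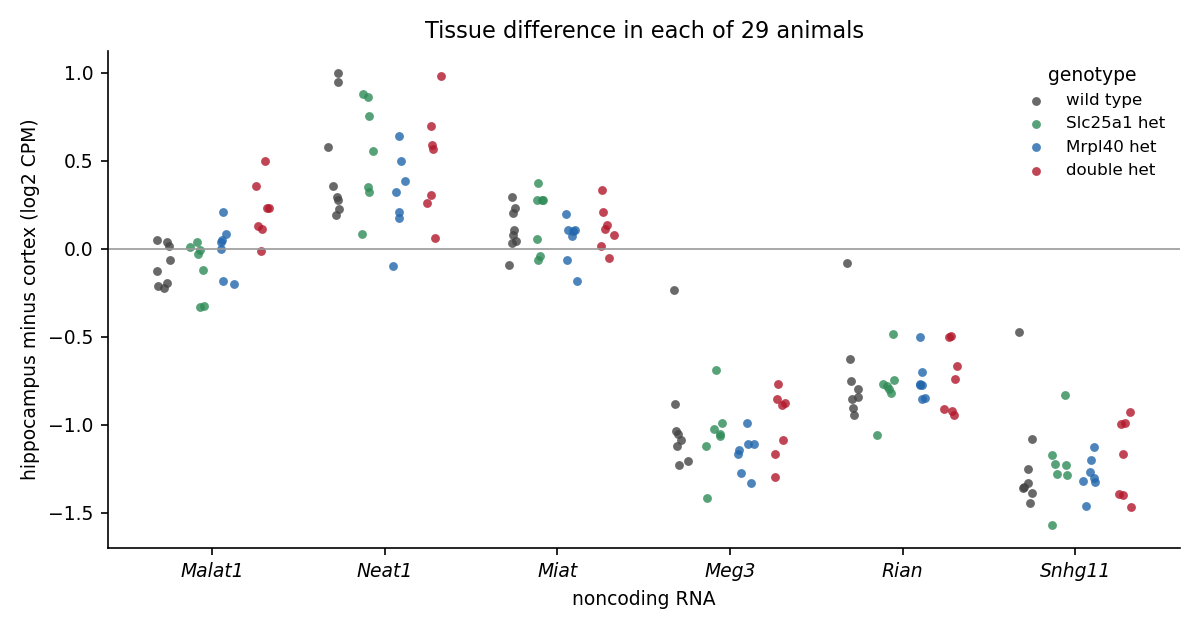
Log2 CPM in hippocampus minus cortex of the same animal (y axis) for each of the 6 RNAs (x axis), 1 point per animal, 29 animals, coloured by labelled genotype. All points of Meg3, Rian and Snhg11 lie below 0, with wild type animal 8 nearest to 0, and 28 of 29 points of Neat1 lie above 0.

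Neat1 rose in hippocampus by 0.48 ± 0.10 on the log2 scale in wild type (edgeR adjusted p = 0.000227), 0.54 ± 0.11 in Slc25a1 heterozygotes, 0.30 ± 0.11 in Mrpl40 heterozygotes and 0.49 ± 0.11 in double heterozygotes, and it passed the test in each. Miat differed by 0.11 ± 0.048 in wild type (adjusted p = 0.046), a call that was lost without a filter on low counts (0.0518), without the animal block (0.0638), without the 6 animals against their label (0.176) and without wild type animal 8 (0.0778). Miat also rose in Slc25a1 heterozygotes (0.16 ± 0.052, adjusted p = 0.00647), and its values were 0.12 ± 0.052 in double heterozygotes (adjusted p = 0.0518) and 0.05 ± 0.052 in Mrpl40 heterozygotes (adjusted p = 0.436).

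Malat1 did not pass the test between tissues in wild type (-0.09 ± 0.051, edgeR adjusted p = 0.137), in Slc25a1 heterozygotes (-0.11 ± 0.055, adjusted p = 0.0867) or in Mrpl40 heterozygotes (-0.00093 ± 0.055, adjusted p = 0.990). In double heterozygotes, where the choice of Malat1 fixed a low cortex level, its value was 0.22 ± 0.055, with hippocampus higher in 6 of 7 animals. The genotype effects of the other 5 RNAs were compared between tissues in 15 tests and edgeR called none, nor was any unadjusted p under 0.05 or any call made by DESeq2, with 0.0234% of all genes called for the double heterozygous effect and 0% for the other genotypes. For Meg3 the tissue difference of the double heterozygous effect was -0.01 ± 0.11 (adjusted p = 1), and for Neat1 0.01 ± 0.15 (adjusted p = 1).

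Proteins that work with these RNAs also differed between tissues in wild type, where 30.4% of all genes were called higher in hippocampus and 30.1% lower. Of 22 paraspeckle proteins 16 rose and none fell, with a median of 0.13 against 0.0066 over all tested genes. They included Nono (0.42 ± 0.032, edgeR adjusted p = 2.0e-13), which binds Neat1 as a core protein of the paraspeckle, Hnrnpr (0.39 ± 0.031), Nudt21 (0.34 ± 0.030), a cleavage factor of 3′ end formation, and Hnrnpk (0.25 ± 0.029). Of 17 genes that bind, modify or process Malat1 10 rose and 1 fell, among them Hnrnpc (0.45 ± 0.034), the RNA methyltransferase subunits Mettl14 (0.40 ± 0.039) and Wtap (0.24 ± 0.032), and Ythdc1 (0.22 ± 0.033), which binds methylated RNA, while the level of Malat1 itself did not pass the test.

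Nuclear speckle and splicing proteins moved both ways, with 12 of 26 higher and 6 lower in hippocampus. Srrm2, a scaffold of the speckle, fell by 0.34 ± 0.037 on the log2 scale, and the splicing factors Srsf1 (0.23 ± 0.031), Srsf3 (0.21 ± 0.029) and Srsf2 (0.21 ± 0.032) rose. Of 3 tested splicing factors that bind Miat, Srsf1 and Celf3 (0.35 ± 0.052) rose. Among 37 other long noncoding RNAs 17 rose and 12 fell: the microRNA host genes Mir124a-1hg (-0.60 ± 0.043) and Mir9-3hg (-0.89 ± 0.061) and the imprinted Peg13 (-0.64 ± 0.040) fell, as Meg3, Rian and Snhg11 did, and Snhg5 (0.69 ± 0.055), another small nucleolar RNA host gene, rose.

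Within the Dlk1-Dio3 domain 3 of the 6 other tested genes fell in hippocampus and 2 rose. Mirg, a further maternally expressed RNA of the domain, fell by 0.95 ± 0.081 on the log2 scale, next to 0.98 for Meg3 and 0.73 for Rian. Rtl1, a retrotransposon-derived gene on the opposite strand, had -1.05 ± 0.084, but it overlaps Meg3 and Rian transcripts, and since the sources do not state the strand setting of the counting, its reads and theirs cannot be told apart. Begain fell by 0.50 ± 0.042, and Dlk1, a paternally expressed gene beside Meg3, rose by 2.65 ± 0.63. The SE of Dlk1 was far larger than those of Mirg, Rtl1 and Begain, so the size of its rise is poorly determined.

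Genes that lie beside the members differed between tissues in both directions, with 9 of 17 tested neighbours lower in hippocampus and 3 higher (median -0.40). Of the 9, Rtl1, Mir1188 and Gm25129 overlap members, and their reads cannot be told from those of the members. Among the 14 neighbours that overlap no member 6 were lower and 3 higher, with a median of -0.30. Ralgapb, next to Snhg11, fell by 0.40 ± 0.031 on the log2 scale. Between double heterozygotes and wild type in cortex none of the 17 neighbours was called by edgeR. Of the 14 that overlap no member 4 had an unadjusted p under 0.05 there, next to 10.9% of all tested genes. Neuron markers also differed by tissue: 7 of 11 were lower in hippocampus and none higher, with a median of -0.24, led by Tubb3 (-0.91 ± 0.074) and Snap25 (-0.67 ± 0.064), and their summed medians in wild type were 10497 CPM in cortex and 8084 CPM in hippocampus. The part of these markers in the fall of Meg3, Rian and Snhg11 was not tested.

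The 6 RNAs were then followed from library to library after removing each genotype's mean. In hippocampus Meg3, Snhg11 and Rian moved together: Meg3 with Snhg11 gave r = 0.957 and rho = 0.889 over 29 libraries, with a 2-sided permutation p of 1e-05 for each, the smallest that 100000 permutations can give (adjusted over 36 relations 0.0001 and 0.0002). Without the 2 libraries farthest from the median of Meg3 the r was 0.920, and without wild type library 8 alone 0.921. Rian with Snhg11 gave r = 0.879 and rho = 0.779 (p = 1e-05 and 2e-05, adjusted 0.0001 and 0.0002), and Meg3 with Rian r = 0.871 and rho = 0.822 (p = 1e-05 for each, adjusted 0.0001 and 0.0002). These became 0.791 and 0.774 without wild type library 8. The summed neuron markers ran from 6635 to 10763 CPM over the hippocampus libraries. The part of cell content and dissection in these relations was not tested.

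In cortex, by Pearson's r, Miat joined this group. Miat with Snhg11 was the strongest relation over 30 libraries, with r = 0.852 and rho = 0.786 (permutation p = 2e-05 and 4e-05, adjusted 0.0002 and 0.0004) and r = 0.795 without the 2 farthest libraries. Meg3 with Rian gave r = 0.696, Miat with Meg3 0.692, Meg3 with Snhg11 0.682, Miat with Rian 0.636 and Rian with Snhg11 0.602, with adjusted permutation p between 0.00192 and 0.0171 for r. By rank 4 of these 5 passed, and Miat with Rian did not (rho = 0.508, adjusted permutation p = 0.0502). Without the 2 farthest libraries these 5 were 0.552, 0.578, 0.789, 0.523 and 0.730. In hippocampus Miat had r of -0.08 with Meg3, -0.27 with Rian and -0.17 with Snhg11, none of which passed; the difference between tissues was not tested.

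By Pearson's r, Malat1 followed none of the others past the threshold. Its closest member in cortex was Neat1, with r = 0.398 and rho = 0.467 (permutation p = 0.0324 and 0.00997, adjusted 0.0833 and 0.0449), 0.404 without the 2 farthest libraries and 0.441 (adjusted p = 0.0306) without the 6 animals against their label. In hippocampus the same pair gave r = 0.0696 (adjusted permutation p = 0.841), and Malat1 with Meg3 gave r = -0.402 (adjusted p = 0.0833). Neat1 with Meg3, Rian and Snhg11 in hippocampus gave r of 0.528, 0.530 and 0.581 (adjusted permutation p = 0.0339, 0.0339 and 0.0171), which rest on wild type library 8: without it they were 0.37, 0.38 and 0.45 (adjusted p = 0.232, 0.232 and 0.16). In all, 12 of 36 relations passed for r, and none of the 6 between the cortex and hippocampus levels of 1 RNA over 29 animals did, with r from -0.0906 to 0.145.

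**Figure D4:**
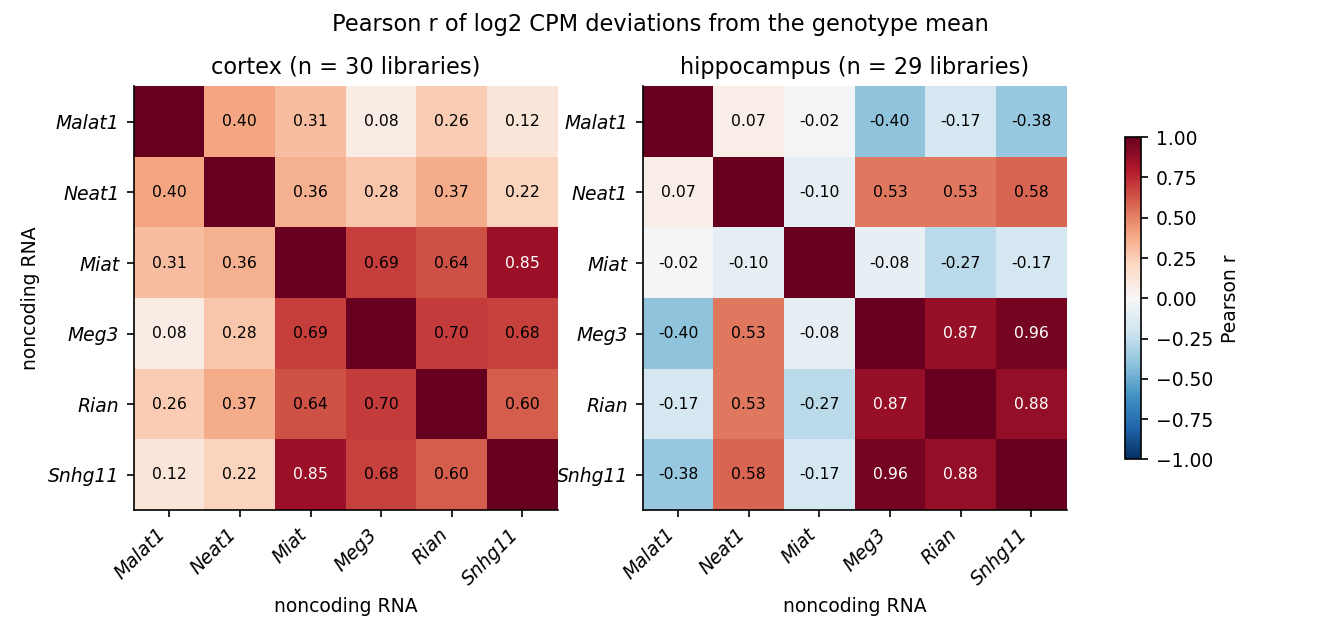
Pearson r between the log2 CPM of each pair of the 6 RNAs after removing the genotype mean, over 30 cortex libraries (left) and 29 hippocampus libraries (right), red above 0 and blue below. Meg3, Rian and Snhg11 form a block in both tissues (0.60 to 0.70 in cortex, 0.87 to 0.96 in hippocampus), which Miat joins in cortex (0.64 to 0.85).

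**Figure D5:**
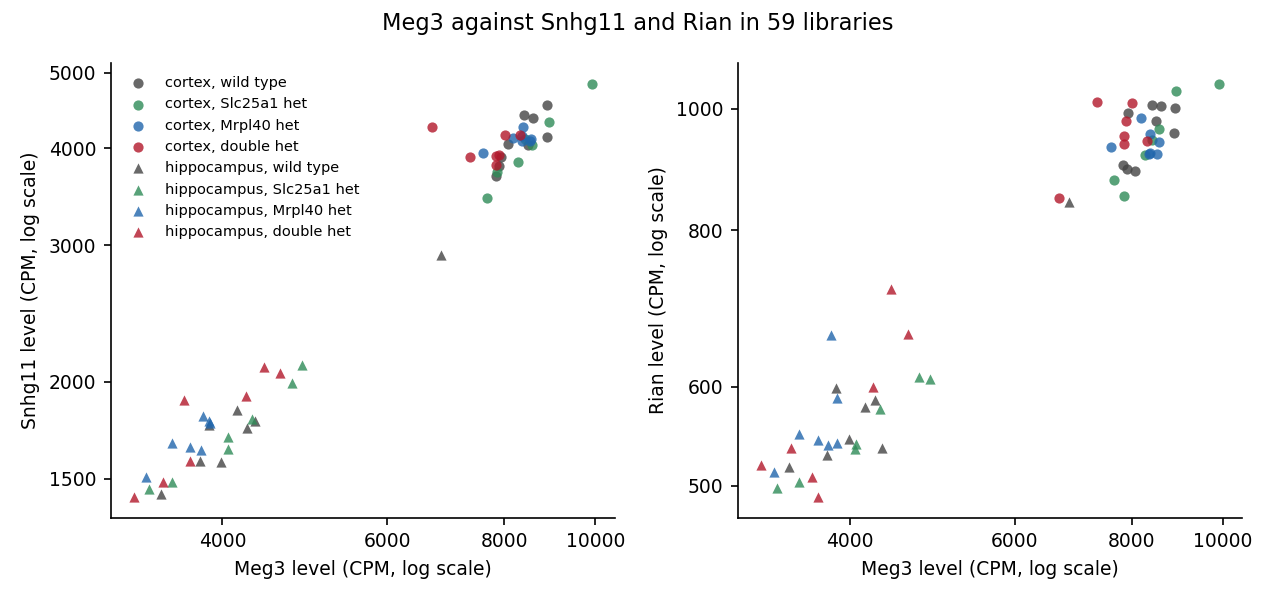
Level of Meg3 (x axis, CPM, log scale) against Snhg11 (left) and Rian (right; y axes, CPM, log scale) in each of 59 libraries, circles for cortex and triangles for hippocampus, coloured by labelled genotype. The hippocampus triangles lie below the cortex circles, and hippocampus wild type library 8 (Meg3 6848 CPM, Snhg11 2911 CPM, Rian 843 CPM) lies between both clouds or at the edge of the cortex cloud.

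The promoters of Meg3 and Snhg11, the pair with the strongest relation, are shown with matches to 4 common promoter motifs in capitals. The motif TGACGTCA is the palindromic element that answers to cyclic AMP. The others are the TATA box, searched as TATAAA, the box recognised by the nuclear factor Y complex, searched as CCAAT, and the GC box bound by Sp-family factors, searched as GGGCGG. All were searched on both strands. They are RefSeq sequences of build GRCm38.p6, 250 bases before to 50 after the gene start on the plus strand, Meg3 at chr12:109540746-109541045 and Snhg11 at chr2:158375463-158375762.
Meg3: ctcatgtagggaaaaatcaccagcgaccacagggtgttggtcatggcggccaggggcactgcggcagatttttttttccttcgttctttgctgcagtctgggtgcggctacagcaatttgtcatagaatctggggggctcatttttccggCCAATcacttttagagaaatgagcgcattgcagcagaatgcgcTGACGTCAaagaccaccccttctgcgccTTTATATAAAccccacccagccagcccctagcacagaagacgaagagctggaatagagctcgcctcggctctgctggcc
Snhg11: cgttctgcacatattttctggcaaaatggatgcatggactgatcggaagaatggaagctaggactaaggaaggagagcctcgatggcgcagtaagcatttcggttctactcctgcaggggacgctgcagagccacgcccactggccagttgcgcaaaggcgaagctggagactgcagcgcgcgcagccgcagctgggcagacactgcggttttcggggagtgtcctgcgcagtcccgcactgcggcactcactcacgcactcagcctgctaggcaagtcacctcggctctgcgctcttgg
The Meg3 window holds 1 TGACGTCA, which 1.79% of 32851 promoters of this length hold, 1 CCAAT (37.4% of promoters) and 2 overlapping matches to TATAAA on opposite strands (13.6%), and no GGGCGG (35.7%). RefSeq holds a second Meg3 window, at chr12:109545148-109545447, with none of the 4 motifs. The Snhg11 window holds none of them, and that of Miat holds 1 GGGCGG. Rian and Malat1 hold none either in their windows, and a match or its absence in such a window says nothing on the binding of a factor.

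Spread between animals differed by group. In cortex the Mrpl40 heterozygotes had the smallest SD of log2 level of the 4 genotypes for 5 of the 6 RNAs, all but Neat1, where 31% of tested genes had their smallest SD in that group. The coefficient of variation of Malat1 was 1.38% there and between 5.37% and 8.66% in the other cortex groups. For Snhg11 it was 2.29% against 4.31% to 11.1%, and for Miat 2.24% against 5.41% to 12.8%. In hippocampus Mrpl40 heterozygotes had the smallest SD for Neat1, Meg3, Rian and Snhg11, where 28% of genes did. For Rian this rests on wild type library 8: without it the SD of log2 level was 0.0857 in wild type and 0.121 in Mrpl40 heterozygotes, while Neat1, Meg3 and Snhg11 had their smallest SD in Mrpl40 heterozygotes with or without that library (25.1% of genes without it). The RNAs move together over libraries, so these counts are not independent, and differences in spread were not tested.

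The genes most like Malat1 over libraries, with genotype means removed, were not the other members. Among 10419 genes over 30 cortex libraries the highest r were those of Acvrl1 (0.747), an endothelial receptor of the TGF-beta family, Zbtb20 (0.737), a transcription factor, Fzd4 (0.730), a Wnt and norrin receptor, Selenop (0.728), the selenium carrier, and Slc2a1 (0.696), the glucose transporter of the blood-brain barrier. Neat1 ranked 422 in that list, Miat 874 and Meg3 3457. Over 29 hippocampus libraries and 10485 genes they were Nup93 (0.782), a protein of the nuclear pore, Lsm8 (0.773), an RNA-binding protein of the spliceosome, Lingo3 (0.772), and the actin nucleation genes Actr3 (0.767) and Arpc2 (0.762), and Neat1 ranked 4498. None of the 5 genes named for cortex was among the 5 named for hippocampus. The genes named are the highest of 10419 and 10485 correlations, and neither these nor the lack of shared genes was tested.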

How the data were processed

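The 59 directional libraries were sequenced from both ends and come from cortex and hippocampus of 30 male mice. Raw counts were deposited for each gene, made by the authors with HISAT2 and featureCounts on GRCm39 per the submitters' processing notes, with no versions or strand setting stated. A second deposited table holds normalized signal values, which were checked to be each library's counts over 1 constant. All 57180 rows carry a gene identifier (7074 have no symbol), and every library was placed by its column name.

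Counts were analysed in R 4.3.3 with the quasi-likelihood test of edgeR 4.0.16 (TMM, its filter on low counts, robust dispersion) and Benjamini-Hochberg adjustment over all tested genes, at a false discovery rate of 0.05. The 4 genotypes of a tissue were fitted together (20394 genes in cortex, 20162 in hippocampus), and tissues were compared in 29 animals with the animal, given by the labels, as a block (21354 genes). DESeq2 1.42.0, limma 3.58.1 and sva 3.50.0 served for alternatives. Log2 CPM used a prior count of 2. Permutations for correlations were made within genotypes. Python 3.11.15 with numpy 2.4.6, pandas 2.3.3, scipy 1.17.1 and matplotlib 3.10.9 did the rest. The genome tables at hand are of build GRCm38, while the counts were made on GRCm39. GRCm38 coordinates were used for the promoters shown, the neighbours of the members and their overlaps, and the exon lengths. The fit was tested on simulated data with known changes.

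The members and gene lists were chosen with earlier results of these data known. Named genes are the 6 members, the 5 genes most like Malat1 in each tissue (mean log2 CPM of at least 3, no predicted genes), the 2 nearest tested genes on each side of a member, and of each list at most 2 genes with the smallest p among those called, or 4 between tissues. Replicate numbers of different genotypes name different animals and share only a number. Between the cortex and hippocampus libraries of 1 animal the median correlation of deviations from the group means was 0.112 over 29 animals. P-values measure the spread between animals.

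Alternatives were other size factors, library totals, the DESeq2 Wald test, no filter on low counts, only the genotypes compared, the replicate block, 2 surrogate variables, the deposited normalized values (log2 after adding 1) and leaving out the 6 animals whose Slc25a1 level contradicts their label. Leaving out hippocampus wild type library 8 or its animal, and 2 of the alternatives for the tissue difference of a genotype effect, and setting apart the neighbouring genes that overlap a member were chosen after seeing the data.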

Additional observations from a re-analysis of the deposited data

Results flagged for a closer look

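Levels of the 6 RNAs were checked for a library far from its group in 48 groups of 7 to 9 libraries, and 4 values stood out by Dixon's criterion, where chance flags about 1 in 20 groups. In hippocampus wild type library 8 Meg3 stood at 6848 CPM (nearest library 4331), Rian at 843 CPM (nearest 598) and Snhg11 at 2911 CPM (nearest 1841). These 3 values come from 1 library and from RNAs that move together over libraries, so they count as 1 event. In cortex, Mrpl40 heterozygous library 5 held 7593 CPM of Meg3, below the nearest library of its group at 8179.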

How the results depend on the processing

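No called value changed direction under the alternatives run. Over 9 alternatives the Malat1 difference between double heterozygotes and wild type in cortex stayed between -0.192 and -0.128. Its interaction in cortex stayed between -0.395 and -0.325 over 8 alternatives. The tissue difference of its double heterozygous effect stayed between 0.203 and 0.310 over 7 alternatives. The first and the last of these were smallest in size without the 6 animals against their label. Leaving out each library in turn kept the cortex difference between -0.203 and -0.161. The count of genotype tests that called an RNA other than Malat1 was 0 under every alternative, and between tissues 17 to 19 of 23 tests were called. Without hippocampus wild type library 8, 3 of 21 relations between RNAs passed in place of 6. With the replicate block, which pairs animals that share only a number (median r 0.126 in cortex and 0.0531 in hippocampus), the Malat1 difference was -0.18 ± 0.044 and 0 of 55 tests were called, and with no replicate block 17 of 23 tissue tests were called. Counts over all genes moved more: between double heterozygotes and wild type in cortex 14 genes were called, 2 without the 6 animals, 8 with the replicate block, 63 with surrogate variables and 105 with DESeq2. The call of Miat between tissues in double heterozygotes was gained with DESeq2 (adjusted p = 0.0488), with library totals (0.0195), without the 6 animals (0.0413) and without wild type animal 8 (0.0441). Neat1 with Rian in hippocampus also lost its call without the 6 animals (r = 0.51, adjusted p = 0.105). Counts of 41484 to 75227 reads of Malat1 in cortex libraries leave little counting error, while Neat1 rested on 1723 to 4204.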
